A study of Mus musculus with 64 samples.

Results

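β-catenin binding was compared between SOX2-ON and SOX2-OFF cells by ChIP-seq, the sequencing of DNA recovered with an antibody against 1 protein. The comparison rested on 6 of the 64 samples of the series, chosen by their labels: 3 β-catenin libraries of SOX2-ON and 3 of SOX2-OFF. Both conditions came from 1 clone of the SOX2-TetON line, which was made from the HM1 mouse embryonic stem cell line and is Sox2-/-: its own Sox2 had been ablated by gene editing, and a Sox2 cDNA under a doxycycline-inducible promoter sat at Hprt, with the rtTA activator at Rosa26. Before differentiation the cells were grown in serum with LIF and doxycycline. They were then kept in N2B27 medium with 10 ng/ml bFGF and 5 µM LGK974, a blocker of WNT secretion, and from day 2 to day 3 the WNT pathway was activated with CHIR99021, which inhibits GSK3. Cells were collected at 72 h. Doxycycline at 1 µg/ml was kept throughout in SOX2-ON and withdrawn in SOX2-OFF, so the conditions differed in the transgene and in the drug. The wild-type (WT) parental line served for comparison as naive ESC in 2i medium and as CEpiLC, caudal epiblast-like cells made in the same differentiation medium, with 3 β-catenin libraries each.

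β-catenin is the carrier of the canonical WNT signal. When GSK3 is inhibited it is no longer degraded, enters the nucleus and is held on DNA by the TCF and LEF proteins, which read a short sequence with the core CTTTGAA or CTTTGAT. SOX2 is an HMG-box factor of pluripotent and neural progenitor cells that binds a related sequence, CATTGT or CTTTGT, so the same regulatory elements can hold both kinds of site. In the epiblast WNT can either maintain pluripotency or start the primitive streak and the caudal epiblast, the source of the trunk.

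The authors called peaks in each library separately, and each peak carries a fold, the ratio of its signal to the local background. Numbers of peaks were 359820, 39154 and 461476 in SOX2-ON and 415244, 3423 and 32581 in SOX2-OFF, replicates 1 to 3. On the log10 scale SOX2-ON minus SOX2-OFF was 0.716 (p = 0.3, two-sided exact permutation test), and the groups overlapped. SOX2-OFF replicate 2 stood apart, with the shortest list of the 12 β-catenin libraries and a median fold of 6.12, against 12.6 to 19.2 for the same number of best peaks in the other 5 libraries. No read counts accompany the peaks, so depth is unknown. SOX2 protein was not measured in these files: the SOX2 libraries themselves listed 93312, 105448 and 232446 peaks in SOX2-ON and 56263, 375980 and 224107 in SOX2-OFF, so SOX2 peaks were also listed after doxycycline was withdrawn. In these bulk samples, fewer cells that bind a site and less binding per cell cannot be told apart.

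To compare positions fairly, each β-catenin list was shortened to its 3423 peaks of lowest p-value, and overlapping peaks of the 6 libraries (minimum 1 bp) were joined, which gave 8543 sites. Sites were called SOX2-ON only when they had a peak in 3 of 3 SOX2-ON and 0 of 3 SOX2-OFF lists, and SOX2-OFF only for the reverse. There were 688 SOX2-ON-only sites, 8.05% of all sites, and 400 SOX2-OFF-only sites, 4.68% of all sites, while 774 sites had a peak in all 6 lists. These calls compare ranks and not presence. In the full lists, SOX2-OFF-only sites still had a weaker peak at 84.3%, 58.8% and 88.0% of positions in the 3 SOX2-ON libraries. SOX2-ON-only sites had one at 55.8% in SOX2-OFF replicate 1 and at 44.0% in replicate 3, and at none in replicate 2, whose whole list was already in use. Only 246 SOX2-ON-only and 7 SOX2-OFF-only sites were absent from every full list of the other condition. Without SOX2-OFF replicate 2, and with the same 3423 peaks per list, the counts were 766 and 952, so their order was reversed without that library. The 5 remaining lists could also be lengthened to 10930 peaks, which gave 1376 and 1768.

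The sequences below lie within 100 bp of the strongest summit on the plus strand of mm10. Capitals mark matches to the SOX sequence (CATTGT or CTTTGT) and to the TCF sequence (CTTTGAA or CTTTGAT) on either strand. The first 3 are among the strongest SOX2-ON-only windows with no peak in any full SOX2-OFF list. They were picked for their SOX matches, and the window of Cbln2, which ranked above Pcca and Pax3, is not printed.
Pax9, chr12:56887448-56887648: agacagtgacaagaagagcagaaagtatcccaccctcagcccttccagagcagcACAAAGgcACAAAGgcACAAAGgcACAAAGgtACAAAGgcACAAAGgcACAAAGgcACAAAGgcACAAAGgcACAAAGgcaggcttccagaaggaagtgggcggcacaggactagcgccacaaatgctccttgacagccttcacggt
Pcca, chr14:122646121-122646321: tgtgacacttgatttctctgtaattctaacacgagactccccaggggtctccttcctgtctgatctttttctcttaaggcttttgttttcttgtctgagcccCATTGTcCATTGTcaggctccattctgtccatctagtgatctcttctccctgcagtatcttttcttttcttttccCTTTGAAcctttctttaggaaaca
Pax3, chr1:78168006-78168206: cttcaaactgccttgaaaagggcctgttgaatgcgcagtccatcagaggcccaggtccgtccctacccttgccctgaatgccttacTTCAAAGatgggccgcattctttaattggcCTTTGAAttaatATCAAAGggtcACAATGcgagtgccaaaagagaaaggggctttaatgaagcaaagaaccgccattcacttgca
The next 3 are the strongest SOX2-OFF-only windows with no peak in any full SOX2-ON list. They hold no SOX match, and those of Cd209f and Adam6a hold 1 TCF match each. These were taken by strength alone, so the printed windows do not measure the SOX contrast between the classes.
Abcc1, chr16:14420208-14420408: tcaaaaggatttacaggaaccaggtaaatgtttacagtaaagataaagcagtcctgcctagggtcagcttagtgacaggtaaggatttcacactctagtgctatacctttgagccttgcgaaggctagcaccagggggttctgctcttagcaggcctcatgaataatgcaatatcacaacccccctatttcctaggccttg
Cd209f, chr8:4067901-4068101: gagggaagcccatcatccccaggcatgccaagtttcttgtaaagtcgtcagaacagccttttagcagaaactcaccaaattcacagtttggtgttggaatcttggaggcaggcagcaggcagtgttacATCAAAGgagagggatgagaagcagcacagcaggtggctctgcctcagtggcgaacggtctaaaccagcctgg
Adam6a, chr12:113646167-113646367: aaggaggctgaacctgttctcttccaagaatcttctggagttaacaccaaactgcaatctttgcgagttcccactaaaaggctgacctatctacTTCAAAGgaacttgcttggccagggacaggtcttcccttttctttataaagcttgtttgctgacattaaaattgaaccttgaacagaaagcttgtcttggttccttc
Windows near genes of the lists below follow, first 3 SOX2-ON-only and then 3 SOX2-OFF-only. They are shown for their variety: SOX matches stand alone near Foxa2 and beside a TCF match near Myc, the Tnfrsf19 window has TCF matches alone, the Dusp6 and Tbx3 windows have 1 TCF match each, and the Pou3f2 window has neither.
Foxa2, chr2:147905781-147905981: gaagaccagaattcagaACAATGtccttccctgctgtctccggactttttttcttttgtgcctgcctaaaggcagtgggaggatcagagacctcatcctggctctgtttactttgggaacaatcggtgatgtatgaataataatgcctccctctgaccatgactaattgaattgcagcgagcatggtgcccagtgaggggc
Myc, chr15:61978983-61979183: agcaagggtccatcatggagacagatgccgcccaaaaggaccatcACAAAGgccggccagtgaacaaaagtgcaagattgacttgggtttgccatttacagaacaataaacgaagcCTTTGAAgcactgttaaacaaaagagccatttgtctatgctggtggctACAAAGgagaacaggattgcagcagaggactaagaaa
Tnfrsf19, chr14:60926078-60926278: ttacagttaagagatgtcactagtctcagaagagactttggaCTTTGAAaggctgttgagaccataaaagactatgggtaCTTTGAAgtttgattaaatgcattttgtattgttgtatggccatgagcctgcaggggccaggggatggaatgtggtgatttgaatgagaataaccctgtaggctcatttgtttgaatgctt
Dusp6, chr10:99451328-99451528: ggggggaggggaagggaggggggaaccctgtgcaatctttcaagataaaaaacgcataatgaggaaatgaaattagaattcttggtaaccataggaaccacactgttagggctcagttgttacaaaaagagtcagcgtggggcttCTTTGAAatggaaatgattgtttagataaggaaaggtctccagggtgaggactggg
Tbx3, chr5:119613537-119613737: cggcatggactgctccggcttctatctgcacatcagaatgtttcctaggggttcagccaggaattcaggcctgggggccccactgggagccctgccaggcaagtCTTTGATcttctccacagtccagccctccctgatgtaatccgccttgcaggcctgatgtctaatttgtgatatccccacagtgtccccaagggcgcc
Pou3f2, chr4:22667809-22668009: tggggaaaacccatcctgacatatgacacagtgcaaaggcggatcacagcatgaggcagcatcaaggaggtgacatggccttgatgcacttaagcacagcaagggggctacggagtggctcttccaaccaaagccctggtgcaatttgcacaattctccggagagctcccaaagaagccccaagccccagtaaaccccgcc
The last 3 belong to groups of sites with shared sequence that are described further on: the first is SOX2-OFF only, the second SOX2-ON only and the third SOX2-OFF only.
Cypt12, chr3:17893431-17893631: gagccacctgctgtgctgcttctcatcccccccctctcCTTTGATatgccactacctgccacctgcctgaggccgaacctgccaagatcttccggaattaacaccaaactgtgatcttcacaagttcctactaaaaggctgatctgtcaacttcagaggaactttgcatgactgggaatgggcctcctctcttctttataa
Smgc, chr15:91864214-91864414: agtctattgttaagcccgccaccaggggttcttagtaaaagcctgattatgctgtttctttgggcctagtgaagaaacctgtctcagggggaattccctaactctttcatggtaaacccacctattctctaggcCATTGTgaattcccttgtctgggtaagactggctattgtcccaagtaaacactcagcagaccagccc
Appl1, chr14:26956525-26956725: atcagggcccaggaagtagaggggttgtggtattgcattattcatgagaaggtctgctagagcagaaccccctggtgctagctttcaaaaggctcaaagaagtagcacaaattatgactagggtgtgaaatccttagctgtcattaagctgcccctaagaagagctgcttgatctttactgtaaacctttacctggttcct

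SOX sequences marked the SOX2-ON-only sites, and TCF sequences were more frequent at the SOX2-OFF-only sites. Within 100 bp of the summit a SOX match was present at 512 of 688 SOX2-ON-only sites (74.4%) and at 89 of 400 SOX2-OFF-only sites (22.3%), against 28.0% of windows of the same length 5000 bp away. The difference was 52.2 percentage points (95% interval 46.7 to 57.1, from Wilson limits, counting error only). At least 2 SOX matches were found at 37.8% and 3.00% of the sites, against 15.0% of all sites. The TCF sequence was present at 44.6% of SOX2-ON-only and 65.5% of SOX2-OFF-only sites, against 8.88% of the windows 5000 bp away, a difference of −20.9 points (−26.7 to −14.8). A TCF match without a SOX match stood at 12.9% of SOX2-ON-only but 54.0% of SOX2-OFF-only sites, against 28.1% of all sites. Sites bound in all 6 libraries lay between them for SOX, with 42.1%, and had TCF matches at 68.0%. Over all 8543 sites, SOX matches stood at 44.9% and TCF matches at 46.1%. The SOX2-ON-only TCF share was thus near that of all sites. The shares describe the sites and were not tested, because sites are not replicates.

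**Figure D1:**
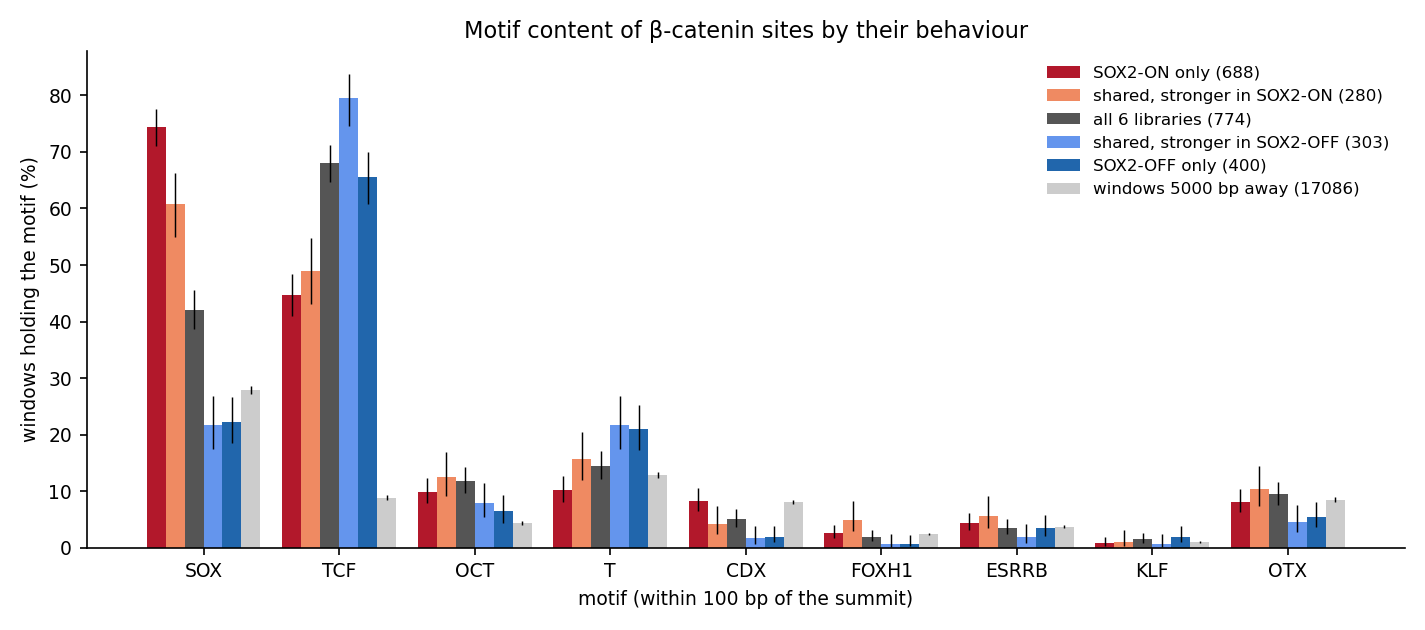
Share of β-catenin sites (%, vertical axis) with each of 9 sequences within 100 bp of the summit, for 5 classes of site and for windows 5000 bp away; bars are shares and lines 95% Wilson intervals for counting error. SOX matches fall from 74.4% at SOX2-ON-only to 22.3% at SOX2-OFF-only sites, while TCF matches are above the grey background of 8.88% in every class.

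Sequences of other factors differed less. The OCT sequence ATGCAAA, read by POU5F1, was present at 9.88% of SOX2-ON-only and 6.50% of SOX2-OFF-only sites, against 4.35% of background windows, and the interval of the difference (−0.108 to 6.57 points) included 0. Over all sites the OCT sequence was present at 8.94%. SOX and OCT matches stood together at 46 SOX2-ON-only (6.69%) and 4 SOX2-OFF-only sites (1.00%), against 3.99% of all sites. The sequence GGTGTG of T-box factors such as T was found at 70 (10.2%) and 84 (21%) sites, on both sides of the background of 12.9%. Over all sites it was found at 14.9%. CDX sequences (TTTATGG or TTTATTG) were present at 8.28% and 2.00%, so the SOX2-ON-only share was near the background of 8.07% and the SOX2-OFF-only share below it. The CDX share over all sites, 5.07%, lay between those of the classes. For ESRRB (AAGGTCA), KLF (GGGCGTG) and OTX (TAATCC) the intervals of the difference included 0. FOXH1 (AATCCAC) was found at 2.62% and 0.750%, against 2.33% of all sites.

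SOX2 itself sat at almost all SOX2-ON-only β-catenin sites in SOX2-ON cells. For this comparison the 20000 best SOX2 peaks of each library were used, and these libraries had no part in choosing the sites. Of the 688 sites, 96.2%, 93.6% and 95.2% had a SOX2 peak in the 3 SOX2-ON libraries, and 20.2%, 26.5% and 31.4% in the 3 SOX2-OFF libraries, with no overlap between groups. The SOX2 summit lay within 100 bp of the β-catenin summit at 84.0%, 83.3% and 83.9% of them in SOX2-ON. At SOX2-OFF-only sites the order was reversed and more variable: 13.3%, 11.3% and 15.5% had a SOX2 peak in SOX2-ON, against 50.8%, 34.8% and 84.8% in SOX2-OFF. Over all sites a SOX2 peak stood at 44.0% to 47.7% in SOX2-ON and at 30.8% to 49.1% in SOX2-OFF. SOX2 peaks were thus listed at many SOX2-OFF-only sites in cells without doxycycline, but the lowest share, 34.8%, lay within the range over all sites. The SOX2-ON-only shares in SOX2-OFF lay below that range or near its lower end. In the full SOX2 lists of SOX2-OFF, 27.5%, 56.3% and 60.6% of the SOX2-ON-only sites had a peak.

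The TCF and LEF proteins differed in the same direction in lists shortened to 4443 peaks for LEF1, 1628 for TCF7L1 and 4134 for TCF7L2. LEF1, a partner of β-catenin that mostly activates, had a peak at 49.7%, 76.2% and 47.0% of SOX2-ON-only sites in SOX2-ON and at 1.02%, 0.872% and 1.16% in SOX2-OFF. At SOX2-OFF-only sites LEF1 peaks stood at 3.25%, 3.75% and 4.75% in SOX2-ON and at 39.5%, 27.5% and 57.5% in SOX2-OFF. The groups did not overlap in either set of these lists. Over all sites LEF1 had a peak at 15.9% to 26.3% in SOX2-ON and at 11.6% to 19.1% in SOX2-OFF. TCF7L1, which mostly represses in pluripotent cells, occupied 46.4% ± 22.7 (SD, n = 3) of SOX2-ON-only sites in SOX2-ON and 40.5% ± 7.6 (SD, n = 3) of SOX2-OFF-only sites in SOX2-OFF, and no more than 1.75% of either set in any library of the other condition. SOX2-ON TCF7L1 replicate 1 was the lowest of its group, at 20.2%. The TCF7L1 shares over all sites were 6.60% to 19.0% in SOX2-ON and 16.4% to 18.6% in SOX2-OFF. TCF7L2 gave the smallest contrast, with 20.5% ± 3.8 against 1.60% ± 1.1 at SOX2-ON-only sites and 4.83% ± 1.7 against 16.3% ± 3.6 at SOX2-OFF-only sites (SOX2-ON and SOX2-OFF, SD, n = 3 each).

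The low shares in the other condition belong to the strongest peaks and do not show absence. In the full lists LEF1 had a peak at 89.7%, 96.4% and 96.8% of SOX2-ON-only sites in SOX2-ON and at 25.9%, 3.34% and 26.7% in SOX2-OFF. At SOX2-OFF-only sites the full LEF1 lists gave 37.0%, 33.3% and 70.5% in SOX2-ON and 79.5%, 42.3% and 87.0% in SOX2-OFF, so there the groups overlapped. These lists held 321099, 124700 and 991719 LEF1 peaks in SOX2-ON and 403114, 17493 and 326376 in SOX2-OFF. The lowest SOX2-OFF shares were those of its shortest list, and the part of list length in these shares was not tested. For TCF7L1 the full lists held 48.4%, 99.7% and 100% of SOX2-ON-only sites in SOX2-ON against 36.2%, 42.7% and 48.4% in SOX2-OFF. They held 5.75%, 53.5% and 92.8% of SOX2-OFF-only sites in SOX2-ON against 89.3%, 92.5% and 98.8% in SOX2-OFF, where replicate 3 of SOX2-ON was above replicates 1 and 2 of SOX2-OFF. The TCF7L1 lists held 21224, 16482 and 247018 peaks in SOX2-ON and 283822, 38535 and 132330 in SOX2-OFF.

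These values were joined in 1 number per library, the balance, which is the share of SOX2-ON-only sites with a peak minus the share of SOX2-OFF-only sites with a peak, in percentage points. SOX2-ON exceeded SOX2-OFF by 112.4 points in the SOX2 libraries, by 94.2 in LEF1, by 84.5 in TCF7L1 and by 30.4 in TCF7L2. The two-sided exact permutation p was 0.1 for each of them, which is as low as 3 against 3 libraries can give (adjusted p = 0.1 by Benjamini-Hochberg over 4 targets). With the WT libraries included, as naive ESC with SOX2-ON against CEpiLC with SOX2-OFF, high and low SOX2 differed by 84.8 points in SOX2, 81.3 in LEF1, 67.2 in TCF7L1 and 33.1 in TCF7L2. An exact permutation test within cell lines gave p = 0.005 for each, the smallest that 400 assignments allow, with adjusted p = 0.005 over 4 targets. Here and below, high and low SOX2 are labels of these groups. The WT states also differed in culture medium and cell state, so the contrast is not of SOX2 alone. In both lines and for each of the 4 targets, the lowest library of high SOX2 was above the highest of low SOX2. Sites chosen without SOX2-OFF replicate 2, at the same list length, gave 75.8, 72.1, 55.0 and 28.1 points in the same order, and sites chosen without it from lists of 10930 peaks gave 69.6, 42.1, 23.0 and 12.7. With the full lists of all libraries the differences were 70.7, 89.4, 72.7 and 61.6 points.

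**Figure D2:**
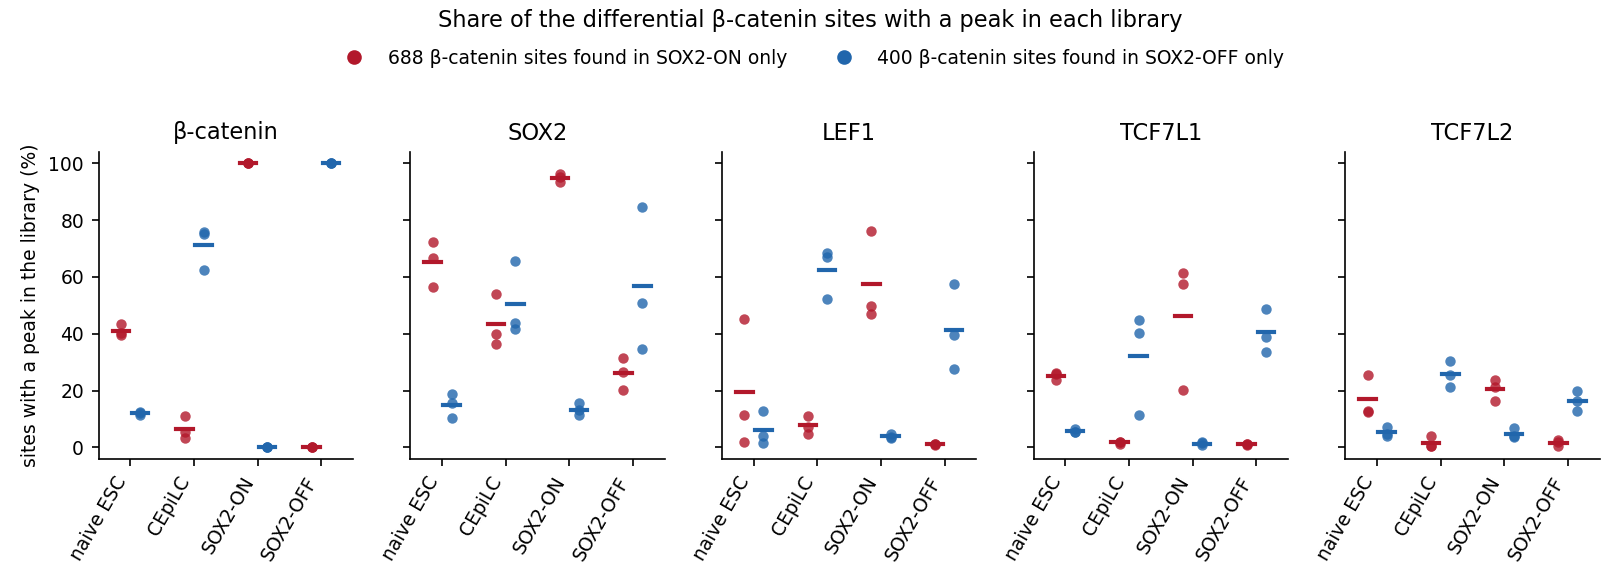
Share of the 688 SOX2-ON-only (red) and 400 SOX2-OFF-only (blue) β-catenin sites with a peak (%, vertical axis) in each library of 5 proteins and 4 conditions; points are libraries and bars the means of 3. The β-catenin points of SOX2-ON and SOX2-OFF are at 100 or 0 because they chose the sites, while LEF1 in SOX2-ON reaches 57.6% of SOX2-ON-only and 3.92% of SOX2-OFF-only sites on average.

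The WT line allowed the sites to be placed in normal development, since its β-catenin libraries had no part in their choice. SOX2-OFF-only sites were mostly CEpiLC sites: 62.5%, 75.0% and 76.0% of them had a β-catenin peak in the 3 CEpiLC lists, and 12.5%, 11.5% and 12.3% in the 3 naive ESC lists. SOX2-ON-only sites leaned to naive ESC, with 43.6%, 39.5% and 40.1% there and 10.9%, 5.38% and 3.34% in CEpiLC. The groups did not overlap in either set. Naive ESC minus CEpiLC was 93.6 points on the balance (p = 0.1, exact permutation test, the smallest possible).

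The correspondence was less complete on the SOX2-ON side. Of the 688 SOX2-ON-only sites, 246 (35.8%) had a peak in at least 2 naive ESC and at most 1 CEpiLC library, 12 showed the reverse, and 321 (46.7%) had no β-catenin peak in any WT list. Of the 400 SOX2-OFF-only sites, 257 (64.3%) had a peak in at least 2 CEpiLC and at most 1 naive ESC library, 11 showed the reverse, and 51 (12.8%) had none in either state. For comparison, 47.3% of all 8543 sites had no peak in a WT list. By the same rules 12.1% of all sites were of the naive type and 20.3% of the CEpiLC type. The 321 sites without WT β-catenin held a SOX match at 76.6%, close to the 73.6% of the 246 naive-type sites. They differed in SOX2: in the lists of 20000 peaks, a SOX2 peak in at least 2 naive ESC libraries stood at 40.8% of the former and at 97.6% of the latter, although 97.2% and 96.7% had one in at least 2 SOX2-ON libraries. An absent peak in a shortened list does not show that a protein was absent. In the full SOX2 lists 72.3% of the 321 sites and all 246 naive-type sites had a peak in at least 2 naive ESC libraries, and in the full β-catenin lists 79.5% to 90.3% of SOX2-ON-only sites had a β-catenin peak in a naive ESC library.

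The SOX2-ON-only sites lay farther from start sites than the SOX2-OFF-only sites. Their median distance to the nearest start site of a protein-coding gene was 57.1 kb, against 30.3 kb for SOX2-OFF-only sites and 35.6 kb for all sites. Within 1000 bp of a start site lay 14 of 688 (2.03%) and 26 of 400 (6.50%), a difference of −4.47 points (−7.43 to −2.03), while the share of all 8543 sites was 5.97%, near that of the SOX2-OFF-only sites. In both classes most of the other sites lay between genes (54.4% and 60.3%) or in introns (42.2% and 31.8%, against 37.4% of all sites). The windows also differed in base composition, with a median GC content of 44.3% at SOX2-ON-only and 49.3% at SOX2-OFF-only sites. Sites are named here by the gene with the nearest start site, and no gene is shown to be regulated by its site.

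Among the 246 SOX2-ON-only sites without a peak in any full SOX2-OFF list, that of highest median fold was on chromosome 12 (56887346 to 56887837), in an intron and 191.9 kb downstream of the start of Pax9, a paired-box gene of the pharyngeal endoderm and sclerotome. Its fold was 103.8, 57.9 and 87.6 in SOX2-ON, and no SOX2-OFF list held a peak there. The window printed above carries 10 SOX matches in a tandem array and no TCF match. Peaks of other proteins and of the WT line at single sites are counted here and below in the shortened lists, unless full lists are named. SOX2, LEF1, TCF7L1 and TCF7L2 each had a peak there in 3 of 3 SOX2-ON libraries. LEF1, TCF7L1 and TCF7L2 had one in 0 of 3 libraries of SOX2-OFF, naive ESC and CEpiLC, whereas SOX2 was listed in 3 of 3 naive ESC and 2 of 3 CEpiLC libraries. The full lists added peaks of LEF1 and TCF7L1 in 3 of 3 and of TCF7L2 in 2 of 3 naive ESC libraries.

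The next sites of this rank, each also without a peak in any full SOX2-OFF list, were nearest to Cbln2, Pcca, Pax3, Mast4, Pax1, Tmem132b, Wdr78, Ppp1r3b and Ptprd, with median folds from 54.7 for Cbln2 to 37.0 for Ptprd. The site of Pax3, a paired-box gene of the dorsal neural tube and neural crest, lay in an intron on chromosome 1 (78167486 to 78168562) with folds of 46.1, 43.7 and 24.8. It had 3 TCF matches and 1 SOX match, and β-catenin was also found there in 3 of 3 naive ESC and 0 of 3 CEpiLC lists. At Mast4, by contrast, no SOX2, β-catenin or TCF/LEF peak was in a shortened list of either WT state, although SOX2, LEF1 and TCF7L1 were found in 3 of 3 SOX2-ON libraries and β-catenin folds were 42.0, 41.4 and 54.2. In the full lists β-catenin and TCF7L1 had a peak there in 3 of 3 and SOX2 in 2 of 3 naive ESC libraries. All 10 sites had a SOX2 peak in 3 of 3 SOX2-ON libraries, and at most 1 SOX2-OFF library had one.

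On the SOX2-OFF side only 7 sites were absent from every full SOX2-ON list, nearest to Abcc1, Cd209f, Adam6a, Crlf2, Extl3, B4galnt2 and Kap. The Abcc1 site, in an intron on chromosome 16 (14419852 to 14420965), had folds of 41.9, 7.24 and 41.5 in SOX2-OFF. At Cd209f, on chromosome 8 (4067670 to 4068573), they were 47.3, 4.94 and 38.2, and SOX2, β-catenin and LEF1 each had a peak in 3 of 3 CEpiLC and 0 of 3 naive ESC libraries. Replicate 2 was the lowest of the 3 at each of the 7 sites. None of the 7 windows held a SOX match and 6 held a TCF match, and all 7 shared sequence with other β-catenin sites.

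Among sites with a β-catenin value in all 6 full lists, the size of the fold was tested with limma. There were 2030 such sites, each overlapping 1 of the 3423 peaks of SOX2-OFF replicate 2. The log2 fold was centred on the median of each library, since the median difference over sites, SOX2-ON minus SOX2-OFF, was −0.11 on the log2 scale before centring. At an adjusted p under 0.05 (Benjamini-Hochberg over all 2030 sites), 280 sites (13.8% of those tested) were stronger in SOX2-ON and 303 (14.9%) in SOX2-OFF. After centring, the 3 SOX2-ON values did not overlap the 3 SOX2-OFF values at 266 of the former and 278 of the latter, and at 874 of all 2030 sites. The counts fell to 43 and 67 without centring and to 60 and 56 without replicate 1 of both conditions, while without SOX2-OFF replicate 2 they were 344 and 348.

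The shared sites showed the sequence contrast in the size of the fold. Some of them also belong to the classes above, as the Gm813 site described below does. Of the 303 sites stronger in SOX2-OFF, 98 had no peak in a shortened SOX2-ON list, and 301 had one in all 3 SOX2-OFF lists. None of the 280 could be SOX2-ON only, since each tested site has a peak in SOX2-OFF replicate 2. The contrasts below are thus drawn in part from the same sites and are not independent of those above. SOX matches stood at 60.7% of sites stronger in SOX2-ON and 21.8% of those stronger in SOX2-OFF, against 38.1% of all tested. TCF matches stood at 48.9% and 79.5%, against 63.1%. At promoters lay 4.29% of sites stronger in SOX2-ON and 0.990% of those stronger in SOX2-OFF, against 6.85% of all tested sites, so the order was the opposite of that between SOX2-ON-only and SOX2-OFF-only sites. In the WT line, 190 of the 303 had a β-catenin peak in at least 2 CEpiLC and at most 1 naive ESC library, and 5 the reverse. Of the 280 sites stronger in SOX2-ON, 106 had a peak in at least 2 libraries of both states, 87 were of the naive type and 37 of the CEpiLC type. The mean β-catenin share of all tested sites was 66.7% in CEpiLC and 44.4% in naive ESC. It was 90.4% and 31.5% for the 303 sites, and 50.6% and 67.5% for the 280. On the balance computed with these sites, naive ESC minus CEpiLC was 75.9 points for β-catenin (p = 0.1, exact permutation test, the smallest possible). High and low SOX2 differed by 53.9 points in SOX2, 79.2 in LEF1, 78.2 in TCF7L1 and 54.0 in TCF7L2 (p and adjusted p = 0.005 for each by exact permutation inside each line, again the minimum).

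The 5 largest gains in SOX2-ON lay near Cbln4, Plcb4, Gja1, Zfp608 and Cep112. At Plcb4, a phospholipase C gene, folds were 101.8, 110.9 and 93.8 in SOX2-ON and 15.7, 6.60 and 15.2 in SOX2-OFF, so every SOX2-ON value exceeded every SOX2-OFF value. The log2 change was 3.20 ± 0.35 (SE), with adjusted p = 1.1e-04 in limma (Benjamini-Hochberg). Gja1, which encodes the gap junction protein connexin 43, had a site 2.94 kb upstream of its start with 80.2, 67.1 and 87.8 against 13.2, 9.54 and 8.31 (log2 change 3.01 ± 0.40, limma adjusted p = 2.2e-04). This site held 2 SOX matches and no TCF match. The other 3 changed by 2.88 to 3.23 on the log2 scale.

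The 5 largest gains in SOX2-OFF lay near Gm813, Ankrd31, Basp1, Cmtm6 and Tbc1d4. At Ankrd31, a gene of meiotic recombination, folds were 5.24, 4.10 and 5.23 in SOX2-ON and 40.2, 14.3 and 67.0 in SOX2-OFF, without overlap (log2 change −2.74 ± 0.35 SE, limma adjusted p = 1.8e-04, Benjamini-Hochberg). The range of the 5 was −2.82 to −2.61. In all 5, SOX2-OFF replicate 2 was the lowest of its group before centring, all 5 windows held a TCF match, and all 5 shared sequence with other sites, whereas 1 of the 5 sites that gained in SOX2-ON did, that of Cbln4.

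**Figure D3:**
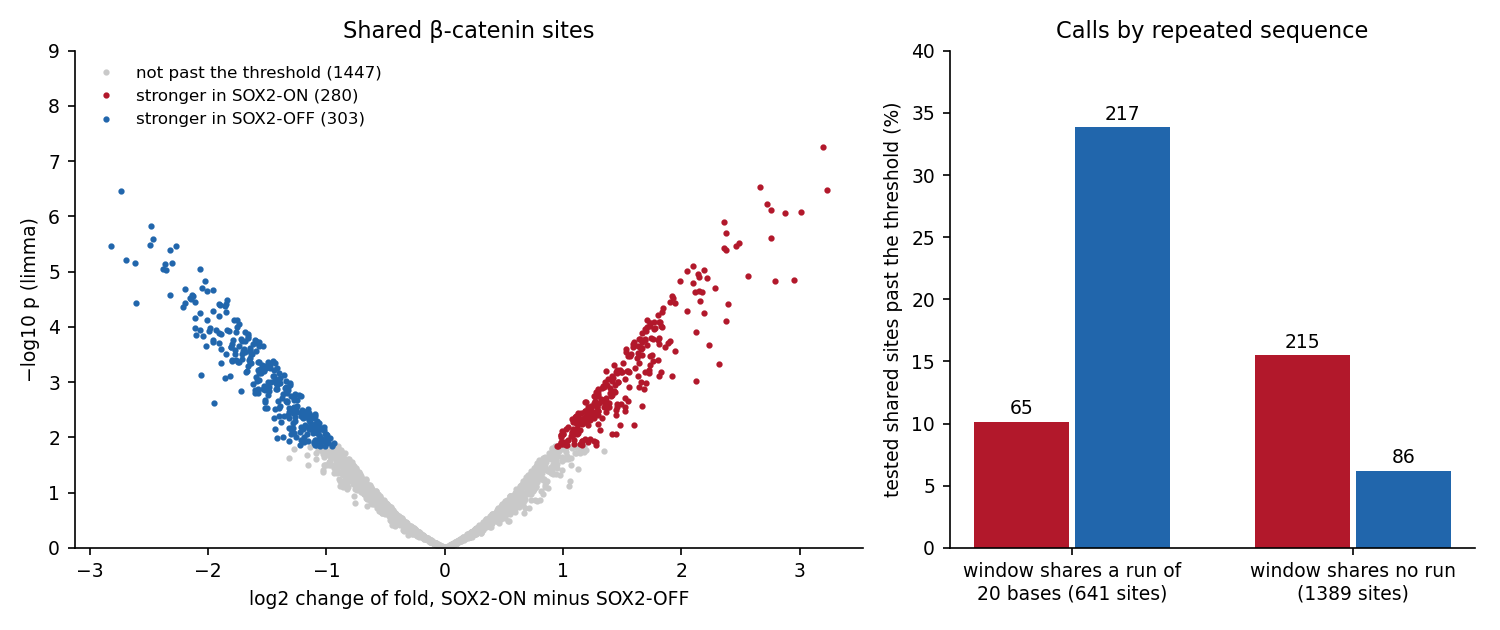
Left, limma log2 change of β-catenin fold (SOX2-ON minus SOX2-OFF, horizontal axis) against −log10 p at 2030 shared sites, red and blue where the adjusted p is under 0.05. Right, percent of tested sites called in each direction among 641 sites whose window shares a run of 20 bases with another site and 1389 that share none: 217 of the 303 sites stronger in SOX2-OFF are among the 641.

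Repeated sequence was more frequent among sites of the SOX2-OFF direction. At least 50% of the window was marked as repeat in the mm10 reference at 33.8% of SOX2-OFF-only and 11.5% of SOX2-ON-only sites, against 23.9% of windows 5000 bp away, and at 54.5% of shared sites stronger in SOX2-OFF and 14.6% of those stronger in SOX2-ON. A window was said to share sequence when it held a run of 20 bases, on either strand, that was also in the window of another site. This measure was added after the data had been seen. It applied to 199 of 400 SOX2-OFF-only sites (49.8%), 106 of 688 SOX2-ON-only sites (15.4%) and 1899 of all 8543 (22.2%). Among the tested shared sites, 217 of the 641 that shared a run were stronger in SOX2-OFF (33.9%) and 65 in SOX2-ON (10.1%), while of the 1389 that shared none 86 were stronger in SOX2-OFF (6.19%) and 215 in SOX2-ON (15.5%). Reads from such windows can align to more than 1 place, and the part that alignment took in these counts was not tested.

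The shares of SOX and TCF matches differed in the same direction on both sides of this division. Among sites sharing no run, SOX matches stood at 74.7% of 582 SOX2-ON-only and 24.4% of 201 SOX2-OFF-only sites, and TCF matches at 48.5% and 62.2%. Among sites sharing a run, the SOX shares were 72.6% and 20.1% and the TCF shares 23.6% and 68.8%. CEpiLC libraries held β-catenin at 78.4% of the SOX2-OFF-only sites that share a run, counted in at least 2 of 3 libraries, and at 67.7% of those that share none.

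Linking windows through shared runs gave 1 group of 925 sites and 1 of 480. In the group of 925, 117 sites were SOX2-OFF only and 30 SOX2-ON only. TCF matches were found at 92 of the 117 and 12 of the 30, against 64.1% of all 925, and SOX matches at 9 of the 117 and 22 of the 30, against 27.0% of all 925. The printed windows of Cd209f, Adam6a and Cypt12 belong to this group. In the group of 480, 73 sites were SOX2-OFF only and 41 SOX2-ON only. The 41 held a SOX match at 29 sites, a TCF match at 1 and a T-box match at 0, and the 73 held them at 27, 39 and 33. Smgc and Appl1 above show 1 window of each kind from that group, and the Appl1 window has 1 T-box match. Members of 1 such group are linked by shared runs, directly or through other members, and cannot be taken as independent sites. A group of 72 sites held 9 SOX2-ON-only sites and 11 shared sites stronger in SOX2-ON, and 61 of the 72 had a SOX match.

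Genes of pluripotency, the primitive streak, the caudal epiblast, WNT, Nodal, neural and FGF signalling were taken from 9 lists, chosen with earlier results of these data known. Of 172 list genes, 125 were the nearest gene of at least 1 site. A SOX2-ON-only site lay near 21 of them (16.8%), against 12.3% of all 4998 genes nearest to a site, and a SOX2-OFF-only site near 9 (7.20%, against 7.66%). Of the 66 list genes with a tested shared site, 12 (18.2%) had one stronger in SOX2-ON, against 16.4% of all genes, and 9 (13.6%) one stronger in SOX2-OFF, against 17.7%. The lists as a whole were thus near the background in each class.

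**Figure D4:**
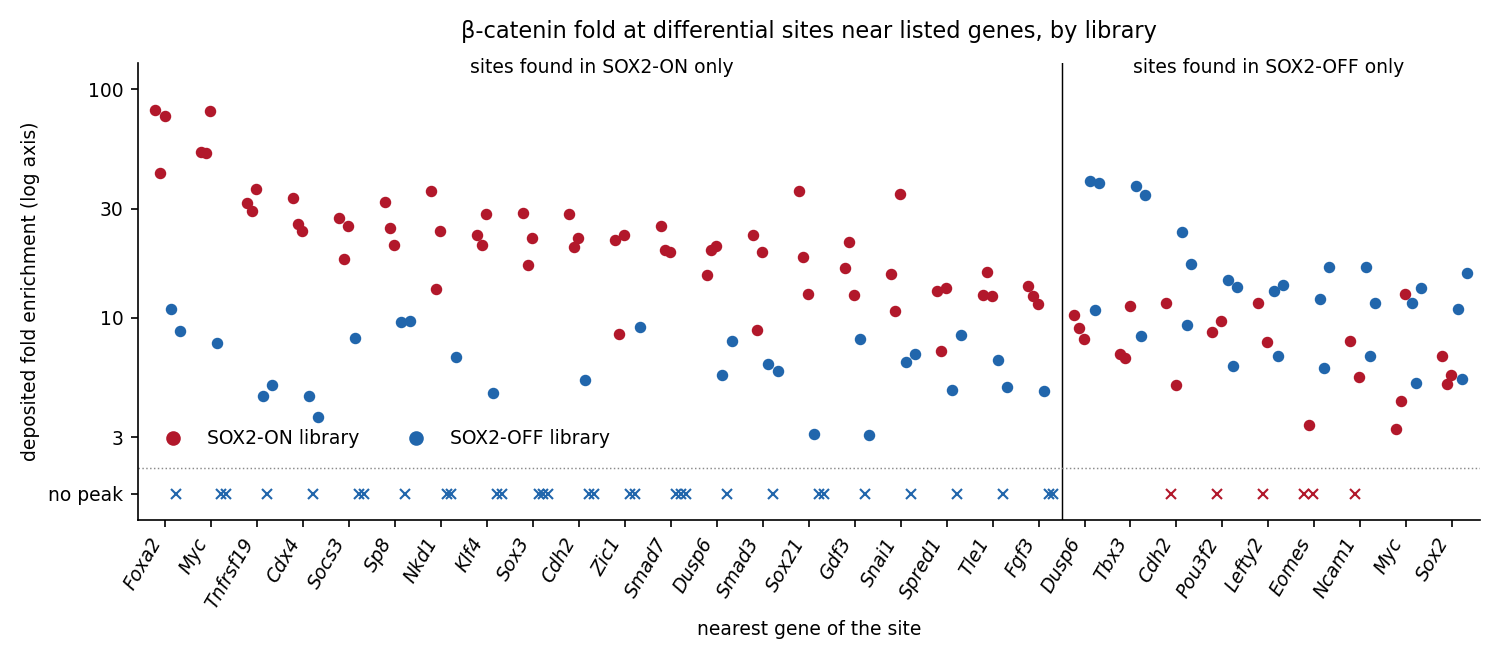
Deposited β-catenin fold (vertical axis, log scale) in 3 SOX2-ON (red) and 3 SOX2-OFF (blue) libraries at sites near list genes that were SOX2-ON only or SOX2-OFF only in the shortened lists; values come from the full lists, and crosses under the dotted line mark libraries whose full list holds no peak there. Foxa2 and Myc have the strongest SOX2-ON-only sites, with median folds of 76.8 and 53.1, and the lowest median of the SOX2-OFF-only sites is 11.0, at Sox2.

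Of the naive pluripotency genes, 16 had a site, 2 of them a SOX2-ON-only and 1 a SOX2-OFF-only one, and of 10 with a tested shared site 3 had one stronger in SOX2-ON and 1 one stronger in SOX2-OFF. Klf2, a Krüppel-like factor of naive cells, had a site 2.77 kb upstream with folds of 27.7, 24.8 and 26.4 in SOX2-ON and 11.0, 6.54 and 5.06 in SOX2-OFF, without overlap (log2 change 1.95 ± 0.43 SE, limma adjusted p = 0.00332, Benjamini-Hochberg). In the WT line β-catenin was listed at this site in 3 of 3 libraries of naive ESC and in 0 of 3 of CEpiLC, while SOX2 was listed there in 3 of 3 libraries of all 4 conditions. Klf4 and Socs3 had SOX2-ON-only sites, with folds of 23.1, 20.8 and 28.4 at Klf4 against a single SOX2-OFF peak of 4.70 in replicate 1. Shared sites rose in SOX2-ON at Sall4, a gene of the core list (71.7 kb upstream, log2 change 2.10, limma adjusted p = 6.2e-04), and at Dppa3 (0.99, adjusted p = 0.0439). At Esrrb and Nanog no site was called. The Nanog promoter had 13.5, 6.92 and 13.6 in SOX2-ON and 11.7, none and 11.7 in SOX2-OFF, so limma did not test it. Nor were the Esrrb sites 0.961 kb and 31.8 kb from its start tested. They had a peak in 3 full SOX2-ON lists and in 2 and 1 full SOX2-OFF lists, and in 3 naive ESC and 0 CEpiLC lists each. The Esrrb site at 28.8 kb had a peak in 3 full lists of each condition. Sox2 itself had a SOX2-OFF-only site 14.9 kb downstream of its start, whose folds of 6.82, 5.13 and 5.62 against 11.0, 5.40 and 15.7 overlapped and did not pass limma (log2 change −0.68 ± 0.34, adjusted p = 0.141).

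Of the primitive streak and mesoderm genes, 16 had a site, 2 of them a SOX2-ON-only and 1 a SOX2-OFF-only one, and of 7 with a tested shared site 1 had one stronger in SOX2-ON and 2 one stronger in SOX2-OFF. Foxa2, a forkhead factor of endoderm and node, had a SOX2-ON-only site 140.1 kb downstream with 80.9, 43.2 and 76.8 against 10.9 and 8.74 in SOX2-OFF replicates 1 and 3 and no peak in replicate 2. SOX2 and β-catenin were listed there in 3 of 3 libraries of both WT states. Snai1, a repressor of epithelial genes, had a SOX2-ON-only site too (15.6, 10.7 and 34.7). Eomes, a T-box gene of the early streak, had 1 site stronger in SOX2-ON and 1 stronger in SOX2-OFF, and another that was SOX2-OFF only (12.1, 6.04 and 16.8, with a single SOX2-ON peak of 3.40). Evx1, a homeobox gene of the posterior streak, had a site 19.2 kb from its start with 9.17, 7.74 and 12.6 in SOX2-ON and 37.4, 9 and 49.1 in SOX2-OFF, with overlap before centring (log2 change −1.34 ± 0.36, limma adjusted p = 0.0101). At T, the gene of brachyury, no site was called: its promoter had 33.3, 15.3 and 50.5 in SOX2-ON and 58.8, 14.0 and 53.8 in SOX2-OFF (log2 change −0.19 ± 0.37, limma adjusted p = 0.719). The site 25.3 kb upstream came closest, with 9.90, 7.96 and 15.2 against 24.4, 8.02 and 35.8 (−0.78 ± 0.34, adjusted p = 0.0951). Nodal, a TGF-β ligand of the early streak, had no called site either, with 46.3, 32.4 and 53.0 against 57.9, 29.8 and 83.5 at the site 11.8 kb upstream (log2 change −0.22 ± 0.33, limma adjusted p = 0.649). The Nodal site 1.23 kb from its start could not be tested. There β-catenin had a peak in 1 full SOX2-ON and 3 full SOX2-OFF lists, and SOX2 in 0 and 3.

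Of the caudal genes, 16 had a site, 2 of them a SOX2-ON-only one, and of 7 with a tested shared site 3 had one stronger in SOX2-ON and 2 one stronger in SOX2-OFF. The intronic site of Cdx2, a homeobox regulator of the caudal epiblast, had 91.2, 70.2 and 106.9 in SOX2-ON and 36.4, 9.83 and 48.5 in SOX2-OFF, without overlap (log2 change 1.83 ± 0.35, limma adjusted p = 0.00152, Benjamini-Hochberg). It carried 1 SOX and 1 TCF match and had β-catenin in 3 of 3 libraries of both WT states. Cdx1 rose by 1.18 (adjusted p = 0.0207), and Cdx4 had a SOX2-ON-only intronic site with 33.4, 25.6 and 24.1 against 4.56 and 3.70 in replicates 1 and 3. Sp8 had 2 SOX2-ON-only sites over 180 kb upstream. Meis2 had a shared site stronger in SOX2-OFF (−1.66, limma adjusted p = 0.00487).

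Of the WNT feedback and ligand genes, 21 had a site, 3 of them a SOX2-ON-only and 1 a SOX2-OFF-only one, and of 17 with a tested shared site 2 had one in each direction. Axin2 and Sp5, direct targets that report WNT activity, had no called site: the Axin2 promoter had 38.6, 34.4 and 56.0 in SOX2-ON and 53.2, 28.2 and 66.2 in SOX2-OFF (log2 change −0.07 ± 0.33, limma adjusted p = 0.887), and the Sp5 promoter 116.6, 59.6 and 145.1 against 100.8, 50.2 and 131.9 (0.27 ± 0.34, adjusted p = 0.579). The groups overlapped at both. Myc had the strongest SOX2-ON-only site of the list, 6.31 kb upstream, with 53.1, 52.8 and 80.0 against 7.75 in SOX2-OFF replicate 1 and no peak in the others. SOX2, LEF1, TCF7L1 and TCF7L2 were each listed there in all 3 SOX2-ON libraries and in 0 of 3 of SOX2-OFF, although 2 full SOX2-OFF lists each of SOX2 and TCF7L1 and 1 of TCF7L2 had a peak. Nkd1, an intracellular inhibitor of the pathway, had 2 SOX2-ON-only sites, the stronger of which had no SOX2 or β-catenin peak in a shortened WT list. In the full lists 2 of 3 CEpiLC libraries had each. Among the TCF and LEF genes, Lef1 had 2 sites stronger in SOX2-ON, one 25.6 kb upstream with 32.6, 21.5 and 25.5 against 7.13, 4.52 and 7.30 (2.15 ± 0.36, adjusted p = 7.4e-04) and one at 4.39 kb (1.04 ± 0.34, adjusted p = 0.0277). Tle1, a Groucho co-repressor, had a SOX2-ON-only site, while Tle3 had a shared site stronger in SOX2-OFF (−1.15, adjusted p = 0.0435).

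Of the 9 lists the neural one had the largest share of genes with a site of either class. A SOX2-ON-only site lay near 5 of 14 (35.7%, against 12.3% of all genes), Sox3, Sox21, Zic1, Fezf2 and Cdh2, and a SOX2-OFF-only site near 3 of 14 (21.4%, against 7.66%), Pou3f2, Ncam1 and Cdh2. Near means the nearest start site, and some were distant. The SOX2-ON-only sites lay 6.68 kb (Sox21), 41.1 kb (Fezf2), 55.3 kb (Cdh2), 72.4 kb (Sox3) and 531.9 kb (Zic1) away. The SOX2-OFF-only sites lay 0.044 kb (Ncam1), 179.5 kb (Pou3f2) and 641.2 kb (Cdh2) away. Sox3, the closest relative of Sox2, had a site 72.4 kb downstream with 28.9, 16.9 and 22.3 and no peak in any SOX2-OFF list. SOX2 was listed there in 3 of 3 naive ESC libraries but β-catenin in 0 of 3, and the full β-catenin lists had it in 3 of 3. In the Nodal pathway, Gdf3, Smad7 and Smad3 had SOX2-ON-only sites and Lefty2, a Nodal antagonist, a SOX2-OFF-only site whose folds of 13.0, 6.77 and 14.0 overlapped the SOX2-ON values of 11.6 and 7.80. Of the FGF and ERK genes, Fgf3, Spred1 and Dusp6 had SOX2-ON-only sites and Dusp6 a SOX2-OFF-only site as well.

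Sites of both directions lay near 1 gene in several cases. Of 616 genes nearest to a SOX2-ON-only site and 383 nearest to a SOX2-OFF-only site, 39 were in both sets. They were 6.33% of the former, against 7.66% of all 4998 genes with a SOX2-OFF-only site, and 10.2% of the latter, against 12.3% of all genes with a SOX2-ON-only site, so genes of both directions were not more frequent than over all genes. With the shared sites included, 838 of the 4998 genes had a site of the SOX2-ON direction and 568 one of the SOX2-OFF direction. Sites of both directions then lay near 73 genes. In the lists these included Cdh2, Dusp6, Eomes, Myc, Tbx3 and Tnfrsf19. Dusp6, a phosphatase that restrains ERK, had a SOX2-OFF-only site with folds of 10.2, 9.06 and 8.10 in SOX2-ON and 39.7, 10.9 and 38.8 in SOX2-OFF (log2 change −1.42 ± 0.36, limma adjusted p = 0.00721, Benjamini-Hochberg). A SOX2-ON-only site lay 17.8 kb away from it, with 15.4, 19.7 and 20.5 against 5.62, none and 7.90. The window of the first held 1 TCF match, and that of the second 3 SOX matches and 1 TCF match.

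Tnfrsf19, a TNF receptor family gene, had the most such sites of these 6 genes. Of its 5, 4 were stronger in or found only in SOX2-ON and 1 was stronger in SOX2-OFF. That one, 10.9 kb upstream, had 19.8, 9.97 and 35.1 in SOX2-ON and 94.1, 15.3 and 93.4 in SOX2-OFF (−1.36 ± 0.41, limma adjusted p = 0.0199), and an opposite site stood 13.6 kb away, where folds of 21.1, 10.4 and 18.3 met no SOX2-OFF peak. At Tbx3, a T-box gene of naive pluripotency and endoderm, a SOX2-OFF-only site lay 24.6 kb from a site stronger in SOX2-ON. The former had 6.93, 6.64 and 11.3 against 37.6, 8.35 and 34.5 (−1.39 ± 0.36, adjusted p = 0.00786), and the latter 18.6, 22.5 and 20.8 against 12.4, 6.54 and 11.1 (1.16 ± 0.36, adjusted p = 0.0238). At Myc the opposite sites were 113.8 kb apart, and the SOX2-OFF-only one, with folds of 11.6, 5.16 and 13.5 against 3.26, 4.33 and 12.7, did not pass limma (−0.65 ± 0.40, adjusted p = 0.235).

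**Figure D5:**
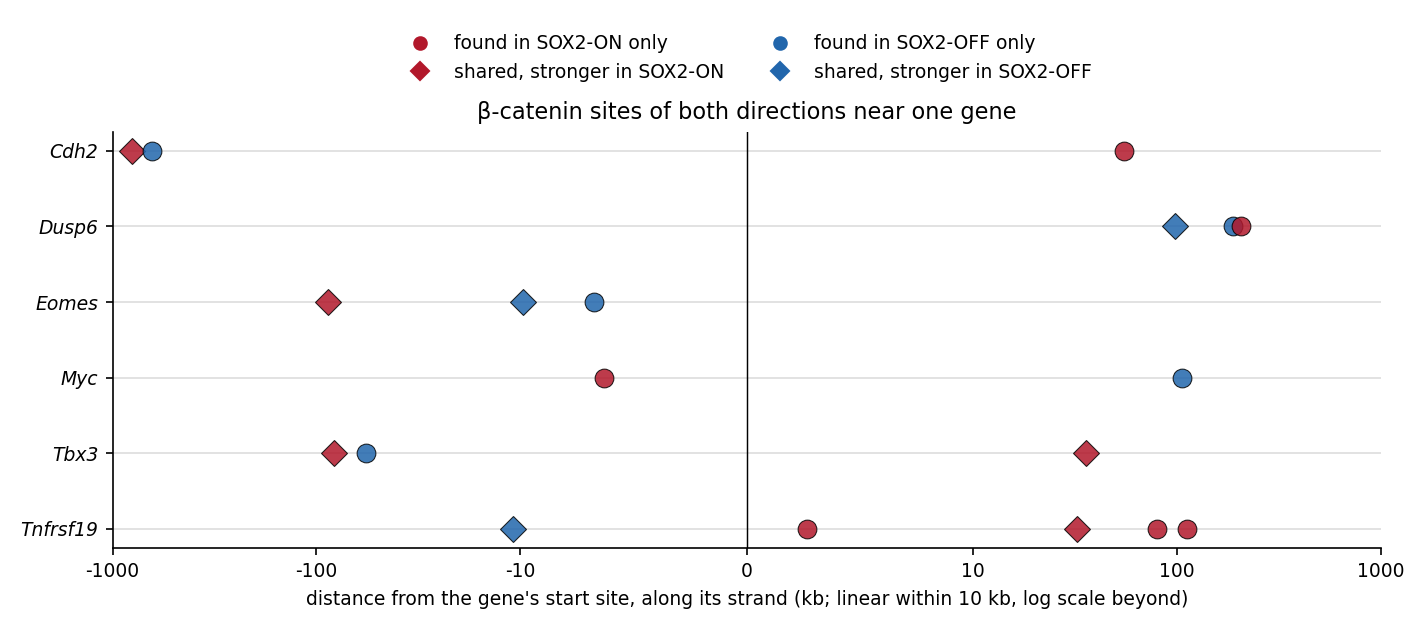
Position of β-catenin sites of both directions (circles, found in 1 condition only; diamonds, shared and past the limma threshold) relative to the start of 6 list genes that have both, in kb along the gene's strand, linear within 10 kb and on a log scale beyond. The closest opposite sites are 13.6 kb apart at Tnfrsf19 and 17.8 kb apart at Dusp6.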

How the data were processed

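The authors aligned the reads of each ChIP-seq library to mm10 with the nf-core ChIP-seq pipeline (BWA) and called narrow peaks with MACS2 at q under 0.05, per library and without pooling. The deposited lists, 60 in all, give for each peak a fold, the ratio of its signal to local background, a −log10 p and −log10 q, and a score derived from it. Read counts are not in the lists, so the depth per library is unknown and intervals cover counting error over sites only. Replicates are biological triplicates per the study's methods. The pairing of inputs with libraries is not given in the sources used here.

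Lists were shortened to the same number of peaks of lowest p (3423 for β-catenin, 20000 for SOX2, 4443 for LEF1, 1628 for TCF7L1 and 4134 for TCF7L2), and β-catenin peaks sharing 1 bp were merged. Sites were compared by presence, and the log2 deposited fold, centred on the library median, by limma 3.58.1 (R 4.3.3, eBayes, Benjamini-Hochberg adjustment over 2030 sites, adjusted p under 0.05). Balances were compared by exact permutation tests over all assignments, and Wilson limits came from scipy 1.17.1. The peak values were joined in Python 3.11.15 with pandas 2.3.3 and pysam 0.24.0. Sequences and repeat masking came from the RefSeq mm10 genome, and start sites of protein-coding genes from GENCODE M21. Sequences were searched on both strands within 100 bp of the strongest summit. The SOX and TCF sequences share letters but cannot match at the same place in full.

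Named sites were, per direction, the 10 of highest median fold absent from the full lists of the other condition, the 5 shared sites of largest log2 change without overlap of groups, up to 4 members of each gene list with a differential site by median fold, and sites of Klf2, Esrrb, Nanog, Nodal, T, Cdx2, Axin2, Sp5 and Lef1. Other list genes were named after their values were seen. Of the list genes with sites of both directions, 1 is counted in its list but is not reported here. The members and lists were chosen with earlier results of these data known. Deviations of same-numbered replicates from their group means correlated at 0.122, 0.323 and 0.185, so the labels' replicate numbers were taken as pairs in an alternative fit.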

Additional observations from a re-analysis of the deposited data

Results flagged for a closer look

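For 3 results the effect of high against low SOX2 differed between the WT line (naive ESC minus CEpiLC) and the SOX2-TetON line (SOX2-ON minus SOX2-OFF), by a two-sided exact permutation of the line labels within each SOX2 level, adjusted by Benjamini-Hochberg over 4 targets. On the differential β-catenin sites, the WT effect on the SOX2 balance was smaller than the SOX2-TetON effect (difference −55.2 points, exact permutation p = 0.01, adjusted p = 0.04). On the shared sites the difference was −36.6 points for SOX2 (exact permutation p = 0.015, adjusted p = 0.03) and −45.1 points for LEF1 (p = 0.01, adjusted p = 0.03). The direction of the effect was the same in both lines. The sites were chosen in the SOX2-TetON line, and the WT states also differed in culture medium, so the line cannot be told apart from either. LEF1 on the differential sites (−25.8 points, adjusted p = 0.413), TCF7L1 (−34.5 and −20.9 points, adjusted p = 0.26 and 0.32) and TCF7L2 (5.37 and −10.8 points, adjusted p = 0.48 and 0.32) did not pass the same exact test.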

How the results depend on the processing

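Counts of sites moved with the length of the lists and with the library that stood apart. SOX2-ON-only and SOX2-OFF-only sites numbered 1302 and 224 with at most 10000 peaks, 3029 and 38 with all peaks, and 246 and 7 when absent from the full lists of the other condition, and 2000 peaks gave 418 SOX2-ON-only sites. Leaving out 1 replicate number gave 942 to 1080 and 571 to 1053. Settings chosen after seeing the data gave 766 and 952 without SOX2-OFF replicate 2 at the same list length, 1376 and 1768 with 10930 peaks, and 201 SOX2-OFF-only sites sharing no run. Shared sites stronger in SOX2-ON and SOX2-OFF numbered 43 and 67 without centring, 145 and 143 with an equal-length peak in all 6 libraries, and 595 and 589 with a value in at least 2 of 3 libraries. Setting absent values to the lowest fold gave 372 and 1206, so that SOX2-ON took 23.6% of calls in place of 48.0%. Sites sharing no run gave 86 stronger in SOX2-OFF. Without 1 library or replicate number the counts were 60 to 344 and 56 to 348. No call changed sign in these fits. With the replicate pairs as a block the counts were 339 and 378 and included all 583 calls, so calls were added and none was lost.

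High minus low SOX2 lay at 73.9 to 90.4 points for SOX2, 73.7 to 90.3 for LEF1, 58.8 to 80.0 for TCF7L1 and 29.2 to 37.2 for TCF7L2 without 1 replicate number, where the exact test cannot go below 0.0556. The SOX difference was 45.5 points within 50 bp and 31.9 within 250 bp of the summit. Within 250 bp those of OCT, CDX, ESRRB and OTX were 7.69, 8.98, 3.61 and 6.98, and within 50 bp CDX was 2.88. Without shared runs TCF was −13.7 and OTX −0.708. For sites absent from full lists, which on the SOX2-OFF side are 7, the differences were 77.6 for SOX, −49.1 for TCF, 8.54 for OCT, 9.35 for T, 5.28 for ESRRB, 0.813 for KLF, 8.13 for OTX and 2.03 for promoters, with T, KLF and promoters on the other side of 0. List genes with a SOX2-ON-only and SOX2-OFF-only site were 10 and 4 by gene body with 10 kb upstream, and 4 and 0 for the absent sites. Of the 34 named calls, 21 were lost without centring of libraries, 20 without replicate 1 and 18 with absent values set to the lowest fold, and none reversed in any setting. Read depth, which the lists do not give, limits what an absent peak can show.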
